A study of Mus musculus with 6 samples.

Results

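The potassium channel genes described here are the features whose symbol starts with Kcn and that held at least 20 unique molecular identifiers (UMIs, 1 per captured RNA molecule) over 6 single-cell libraries of the mouse aortic root. Of 99 such symbols among 55402 features, 75 met this rule, 16 held 1 to 19 UMIs and 8 held none. Just inside the threshold lay Kcnj14 with 26 UMIs and Kcnj9 with 29, and just outside it lay Kcnh8 with 17 and Kcnh4 with 13. By role, the 75 members were 31 voltage-gated, 12 inward rectifier, 11 two-pore domain and 6 calcium- or sodium-activated pore-forming subunits, and 15 auxiliary subunits.

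Aortic roots came from male mice aged 24 weeks, with 4 age- and genotype-matched animals pooled for each group, and each cell suspension was sorted by tdTomato into lineage-positive (smooth muscle lineage-traced) and lineage-negative cells. Values given in threes follow the order control, Marfan and the library labelled Klf4-floxed. The 3 genotypes were littermate controls with the control Fbn1 and Klf4 genotypes, Marfan mice with the Fbn1 genotype C1041G/+ and the control Klf4 genotype, and Marfan mice with C1041G/+ and a floxed Klf4 genotype, in which deletion of Klf4 was induced. Each genotype gave 1 library of each sort, so no comparison between genotypes could be tested: intervals in brackets are 95% intervals for counting error alone, every ratio compares libraries, and the spread between animals is not known. The labels do not name the driver of the lineage trace, the inducing agent or the floxed exons.

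Potassium channels let potassium leave the cell and hold the membrane potential negative, and in arterial smooth muscle this limits calcium entry through voltage-gated calcium channels and so contraction. The large-conductance calcium-activated (BK) channel of smooth muscle is built from the pore subunit Kcnma1 and auxiliary beta subunits, of which Kcnmb1 is the smooth muscle form and Kcnmb4 is best known from neurons. The ATP-sensitive channel of vascular cells pairs the pore subunit Kcnj8 with the sulfonylurea receptor Abcc9.

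Klf4 stood highest in the library labelled Klf4-floxed of each sort, from mice in which its deletion was induced. Over whole lineage-positive libraries Klf4 stood at 30.4 CPM (UMIs of the gene per 1000000 UMIs) for control, 44.6 for Marfan and 116 for the library labelled Klf4-floxed. Over whole lineage-negative libraries it stood at 280, 268 and 358 CPM in the same order. A 3' tag outside the deleted exons does not check a deletion, so this neither checks nor replaces the label. Directions against the libraries labelled Klf4-floxed are given for the libraries as labelled. The lineage-positive libraries held 71583972, 87881816 and 95250397 UMIs in the same order, and the lineage-negative ones 47750360, 81181913 and 70598538. The Marfan lineage-positive library stood apart in depth, with a median of 2153 UMIs per kept cell against 11379.5 and 12878. Barcodes with at least 1000 UMIs and over 10% mitochondrial UMIs, which were left out, made up 26.8%, 8.09% and 22.02% of the barcodes of the lineage-positive libraries. Any pair of libraries shared 3 to 27 cell barcodes.

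Smooth muscle cells (SMC) here are lineage-positive cells with at least 1 UMI of Myh11, the smooth muscle myosin heavy chain: 5120 control, 10161 Marfan and 5842 cells of the library labelled Klf4-floxed. All 7 SMC markers were present, with a summed level of 45921, 48535 and 43587 CPM. Among lineage-negative cells, 17 of 21 clusters, made without Kcn genes, could be named from markers.

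The stretches before the start sites of 3 members are shown because these genes carry the main patterns below: Kcnmb1 and Kcnmb4 are beta subunits of 1 channel counted in different cells, and Kcnj15 differed most between the control and Marfan SMC among members that were lower. Each is the 250 bases upstream of the start site in RefSeq, build GRCm38.p6, 5′ to 3′ on the gene's strand, with the dinucleotide CG in capitals. Kcnmb1 is at chr11:33962763-33963012, + strand, Kcnmb4 at chr10:116473524-116473773, - strand, and Kcnj15 at chr16:95257308-95257557, + strand. The Kcnmb4 stretch lies inside the GENCODE M21 span of the gene given below, so RefSeq and GENCODE place its start differently. The other stretches end next to the gene starts given below.
Kcnmb1: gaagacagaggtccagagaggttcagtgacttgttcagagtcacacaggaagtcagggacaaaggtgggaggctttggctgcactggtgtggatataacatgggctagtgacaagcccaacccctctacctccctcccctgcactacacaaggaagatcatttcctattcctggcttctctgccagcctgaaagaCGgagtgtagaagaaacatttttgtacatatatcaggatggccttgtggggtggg
Kcnmb4: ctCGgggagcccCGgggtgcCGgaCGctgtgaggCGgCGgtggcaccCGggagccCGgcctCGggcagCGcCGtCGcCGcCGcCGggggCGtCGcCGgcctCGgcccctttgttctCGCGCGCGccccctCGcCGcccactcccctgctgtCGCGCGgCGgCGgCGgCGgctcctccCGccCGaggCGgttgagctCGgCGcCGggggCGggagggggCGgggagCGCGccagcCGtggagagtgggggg
Kcnj15: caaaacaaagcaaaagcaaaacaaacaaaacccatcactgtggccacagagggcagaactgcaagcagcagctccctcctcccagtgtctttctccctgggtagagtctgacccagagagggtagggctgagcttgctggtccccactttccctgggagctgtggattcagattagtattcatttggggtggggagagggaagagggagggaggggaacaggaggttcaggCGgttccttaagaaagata
The Kcnmb4 stretch held 43 CG and 83.6% G or C, against 1 CG and 50.8% for Kcnmb1 and 1 CG and 53.2% for Kcnj15. Over all 32851 promoters of the table the medians were 6 CG and 52.4%. RefSeq rows matched 57 of the 75 members, with 77 promoters. None of the 77 held a CArG box, the serum response factor motif searched on both strands by its consensus, which 1.47% of all promoters held. The motif CATTCC, searched as CATTCC or GGAATG, was in 12 of the 77 (15.6%) and in 12.6% of all promoters.

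In SMC, 23 of the 75 members reached a mean of 1 CPM over the 3 libraries, 14 reached 5 and 9 reached 10, while 36 lay under 0.1. CPM here counts 3' tags and is not divided by gene length. The 2 members above 100 CPM were both auxiliary subunits. Of the voltage-gated subunits 10 of 31 reached 1 CPM, of the auxiliary subunits 5 of 15, of the inward rectifiers 3 of 12, of the calcium- or sodium-activated subunits 3 of 6 and of the two-pore channels 2 of 11. Together the members made up 0.0611%, 0.0431% and 0.0456% of SMC UMIs, highest in the control.

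**Figure D1:**
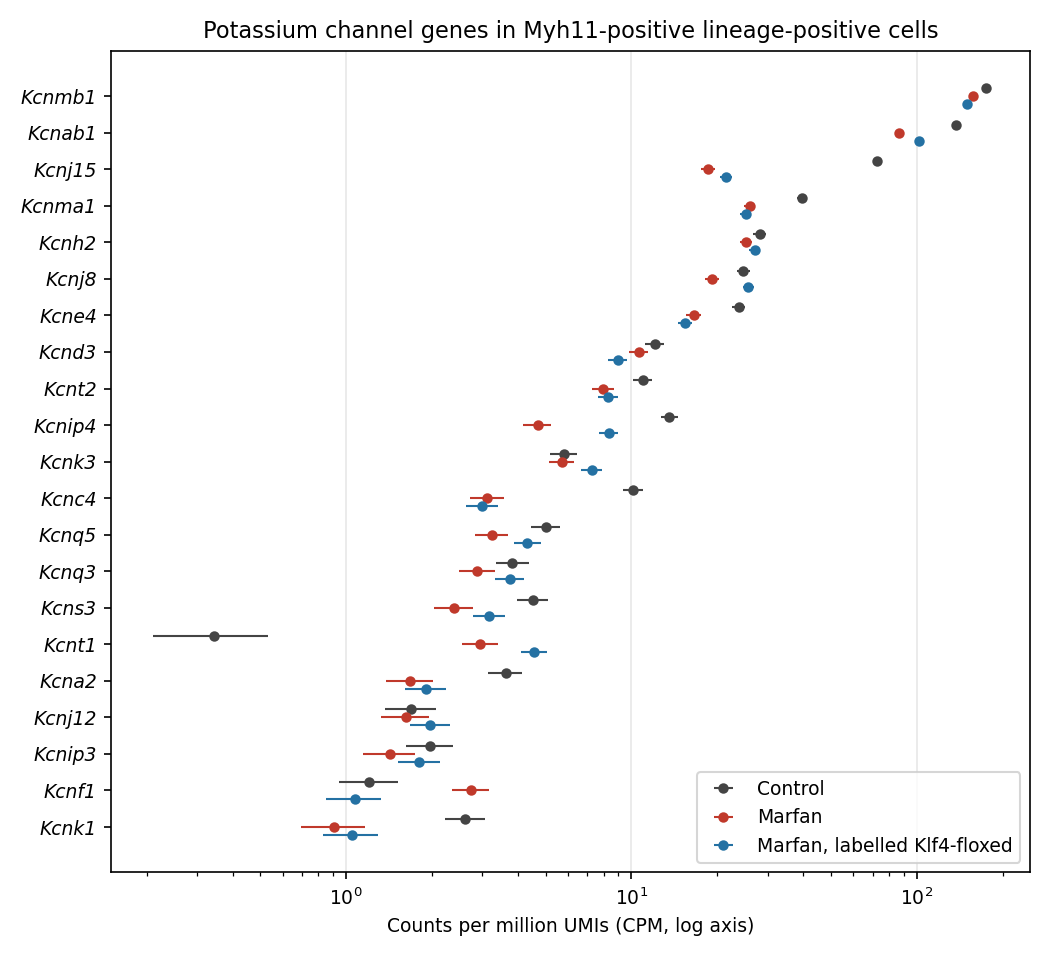
Level of 21 of the 23 potassium channel genes with a mean of at least 1 CPM in SMC. Points are CPM in 1 library each on a log axis, and bars are exact 95% Poisson intervals. The control point lies apart on the high side for Kcnj15 and Kcnc4 (72.6 and 10.1 CPM), and at lower levels for Kcnk1 and Kcna2. It lies apart on the low side for Kcnt1 (0.345 CPM). For Kcnip4 the control is highest (13.6 CPM), with the points of all libraries spread.

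Among the auxiliary subunits, Kcnmb1 stood at 174 CPM [171, 178], 157 [154, 160] and 150 [147, 153]. Kcnab1, a cytoplasmic beta subunit of Kv1 channels, stood at 137, 86.6 and 102 CPM. Kcne4, a single-span subunit that modulates voltage-gated channels, stood at 23.8, 16.6 and 15.5 CPM. All of these were highest in the control library, by little for Kcnmb1. Kcnip4, a calcium-binding subunit of Kv4 channels, stood at 13.6, 4.69 and 8.32 CPM, so that the Marfan library was lowest. Kcnip3, of the same family, stood at 1.97, 1.42 and 1.81 CPM. It was also lowest in the Marfan library, by less than 1.5-fold and with level intervals that overlapped.

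Among inward rectifiers, Kcnj15 (Kir4.2) stood at 72.6 CPM [70.5, 74.9], 18.5 [17.5, 19.6] and 21.4 [20.4, 22.4]. The control library was far above both others. The gene spans chromosome 16, 95257558 to 95300260, + strand, and overlaps annotated antisense genes. Kcnj8 stood at 24.7, 19.2 and 25.6 CPM, lowest in the Marfan library, and its partner Abcc9 at 61.7, 45.7 and 58.8 CPM in the same order. Kcnj12, a Kir2 channel, stood at 1.69, 1.62 and 1.97 CPM.

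Of the calcium- or sodium-activated subunits, Kcnma1 stood at 39.6 CPM [38.0, 41.2], 25.9 [24.7, 27.2] and 25.2 [24.1, 26.4]. The sodium-activated channel Kcnt2 stood at 10.9, 7.95 and 8.30 CPM. Both were highest in the control library. The related Kcnt1 ran the other way, with 20, 195 and 354 UMIs (0.345, 2.95 and 4.57 CPM), lowest in the control.

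Of the voltage-gated subunits, Kcnh2 (the ERG channel) stood at 28.1, 25.2 and 27.0 CPM. The transient-current subunit Kcnd3 stood at 12.1, 10.6 and 8.94 CPM. Both differed by under 1.5-fold between any of the libraries. Kcnc4 (Kv3.4) stood at 10.1 CPM [9.34, 11.0], 3.12 [2.71, 3.58] and 3.01 [2.63, 3.42], and the control was again apart. Kcna2 stood at 3.62, 1.68 and 1.91 CPM, the silent subunit Kcns3 at 4.52, 2.39 and 3.17, and Kcnq5 at 5.0, 3.24 and 4.32. Kcnq3 stood at 3.83, 2.88 and 3.74 CPM. The silent subunit Kcnf1 was highest in the Marfan library, at 1.21, 2.74 and 1.07 CPM. Of the two-pore domain leak channels, Kcnk3 (TASK-1) stood at 5.79, 5.71 and 7.26 CPM and Kcnk1 at 2.62, 0.908 and 1.04.

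Between the Marfan and control libraries, 9 of the 23 members were at least 1.5-fold lower in Marfan SMC (39.1%) and 2 were at least 1.5-fold higher (8.70%). Over all 11403 features of at least 1 CPM, 3.75% were lower and 5.01% higher by that margin. The members lower in Marfan SMC were Kcnj15 (log2 ratio -1.97 [-2.06, -1.88]), Kcnc4 (-1.70), Kcnip4 (-1.53), Kcnk1 (-1.53), Kcna2 (-1.11), Kcns3 (-0.92), Kcnab1 (-0.66), Kcnq5 (-0.63) and Kcnma1 (-0.61). Those higher were Kcnt1 (3.10 [2.43, 3.84]) and Kcnf1 (1.18 [0.78, 1.60]). The median log2 ratio of the 23 was -0.46, against -0.07 over all features, and 21 of the 23 lay below 0. At a mean of at least 5 CPM, 5 of 14 members were lower, against 2.12% of features, and 0 were higher, against 3.39%. Kcnma1 and Kcnq5 lay near the 1.5-fold line and fell short of it under some settings.

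Beside this, markers of modulated SMC summed to 647, 3232 and 2844 CPM, with none of the 8 at 0. Fibroblast markers summed to 803, 981 and 814 CPM over 8 genes, and erythroid markers to 2.33, 58.5 and 22.6 over 4, with none at 0. Valve interstitial or chondrocyte markers summed to 115, 274 and 147 CPM over 6 genes, none at 0. Macrophage or monocyte markers summed to 22.1, 17.0 and 8.98 CPM over 8 genes, none at 0. The part of cell makeup, free RNA and the shallow Marfan library in these ratios was not tested beyond the values by cluster and at equal depth below.

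Between the library labelled Klf4-floxed and the Marfan library, 2 of 23 members were at least 1.5-fold higher, Kcnip4 (log2 ratio 0.83 [0.63, 1.03]) and Kcnt1 (0.63 [0.37, 0.89]), and 1 was lower, Kcnf1 (-1.36 [-1.75, -0.97]). Over all features 0.693% were higher and 1.25% lower. Kcnt1 was short of 1.5-fold, at 0.54 to 0.58, at a minimum of 4000 UMIs per cell, at a mitochondrial limit of 20%, with at least 3 Myh11 UMIs and without SMC cluster 0 (chosen after seeing the data), which left 1 member higher, and thinning gave 4. The other 20 members differed by less than 1.5-fold, and the median log2 ratio was 0.20, against 0.01 over all features. Against the control library, which also served the comparison above, the library labelled Klf4-floxed had 7 members at least 1.5-fold lower, against 3.24% of features, and 1 higher, against 4.88%. The 7 were Kcnj15 (-1.76), Kcnc4 (-1.75), Kcnk1 (-1.33), Kcna2 (-0.92), Kcnip4 (-0.71), Kcnma1 (-0.65) and Kcne4 (-0.62), and the higher member was Kcnt1 (3.73). Among the 14 members of at least 5 CPM, the library labelled Klf4-floxed had 1 higher than Marfan (0.271% of features) and 0 lower (0.541%), and against control 0 higher (3.26%) and 5 lower (1.82%).

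**Figure D2:**
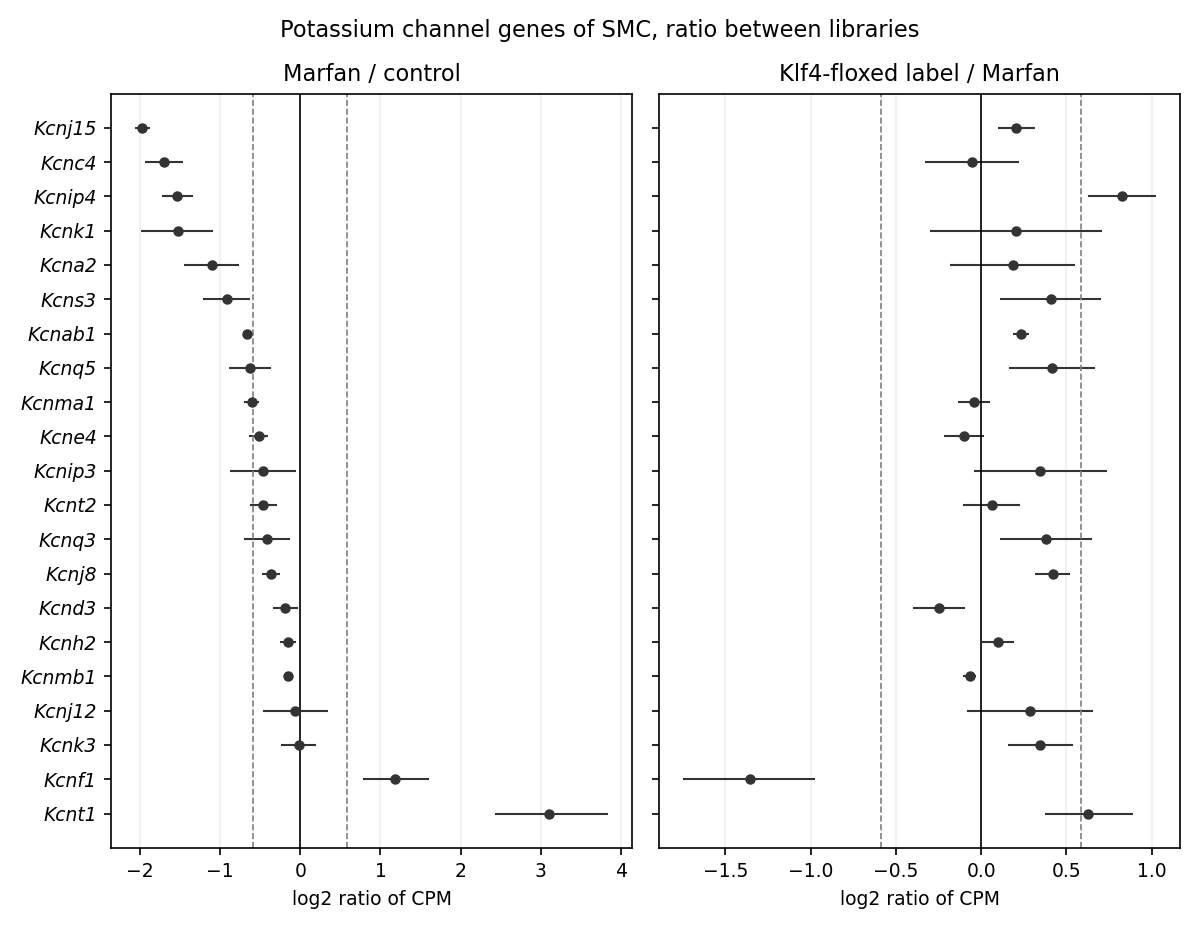
Log2 ratio of CPM in SMC for 21 of the 23 members, Marfan over control on the left and the library labelled Klf4-floxed over Marfan on the right, each with its 95% counting interval and dashed lines at 1.5-fold. Of the 21 members drawn, 19 lie left of 0 in the left panel and 6 in the right panel, and the 2 panels share the Marfan library.

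Clusters of SMC show where each member was counted. Within the 6 clusters that had at least 100 cells of both the control and Marfan libraries, Kcnj15 was lower in the Marfan library in all 6, with log2 ratios of -1.34 in cluster 1 (led by P2rx1 and Postn), -1.41 in cluster 2 (Wif1, Fibin, Krt18), -0.82 in cluster 3 (Tnnt2, Corin), -1.70 in cluster 5 (Hsd11b1, Lum, Dcn), -2.22 in cluster 6 (Acan, Pln) and -1.01 [-3.06, 0.97] in cluster 7 (Ndufa4l2, Gja4), which held 6 and 5 UMIs. Within these 6 clusters its control level ran from 5.52 CPM in cluster 7 to 83.9 CPM in cluster 5. Kcnc4 was likewise lower within clusters 1, 2, 3, 5 and 6, at -1.08, -1.32, -1.44, -1.38 and -1.67, with an interval that reached past 0 in cluster 5. In cluster 7 it had 0 UMIs in the Marfan library and 3 in the control.

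The other members lower in Marfan SMC differed from cluster to cluster. Kcnma1, at -0.61 over all SMC, stood at -0.11, 0.11, -0.24, -0.21, -0.45 and -0.22 in clusters 1, 2, 3, 5, 6 and 7, with an interval that left out 0 in cluster 6 alone [-0.87, -0.03]. Kcnab1, at -0.66 over all SMC, stood at -0.07, -0.02, -0.64, -0.64, -0.44 and -0.40 in the same clusters. Kcnip4, at -1.53 over all SMC, stood at -0.57, -0.51, -0.72, -1.28 [-2.67, 0.03], -0.61 and -1.75 [-7.63, 2.52], with 14 and 9 UMIs in cluster 5 and 2 and 1 in cluster 7. Its level was highest in cluster 2 (20.1, 14.1 and 19.8 CPM). Kcnk1 was lower by more than counting error in cluster 1 (-1.57 [-2.69, -0.37]) and cluster 6 (-2.40 [-4.04, -0.97]), and Kcns3 in cluster 5 (-0.94 [-1.64, -0.26]). For Kcnq5 and Kcna2 no interval within these 6 clusters left out 0. Kcnab1 was low in cluster 4, the modulated SMC-like cells led by Spp1 and Timp1, at 28.8 CPM in the Marfan library and 30.5 in the library labelled Klf4-floxed, against 124 and 156 in cluster 1. Kcnmb1 was also lower there, at 101 and 85.1 CPM against 196 and 181 in cluster 1. So was Kcnma1, at 8.67 and 7.78 CPM in cluster 4 against 36.1 and 35.6 in cluster 1. Kcnj15 was near its level of cluster 1, at 14.4 and 16.8 CPM against 15.5 and 17.7. Cluster 5 was also low in Kcnab1, at 44.4, 28.5 and 31.6 CPM, and in Kcnmb1, at 65.6, 77.8 and 100.1. Cluster 10, of 60 Marfan cells and 53 of the library labelled Klf4-floxed, held Kcnmb1 at 59.1 and 71.2 CPM. This unnamed cluster was led by Cxcl2, C1qa and C1qb, with Lyz2 also among its leading genes, and held 6 of 6 pericyte markers. Its makeup was not tested.

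Kcnt1 was counted mainly in those modulated SMC-like cells. Cluster 4 gave 149 of 195 Kcnt1 UMIs of Marfan SMC and 304 of 354 of the library labelled Klf4-floxed, at 12.4 CPM [10.5, 14.6] and 18.6 [16.6, 20.8]. In cluster 1 it stood at 0.356 and 0.183 CPM. Kcnf1 was counted elsewhere: it stood at 4.04, 4.50 and 1.94 CPM in cluster 1 and at 3.79 CPM in the Marfan cells of cluster 0, a shallow cluster of 36, 5395 and 90 cells. The control library had 34 cells in cluster 4, too few for a level. A cluster mostly of 1 library may be that library rather than a cell state.

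**Figure D3:**
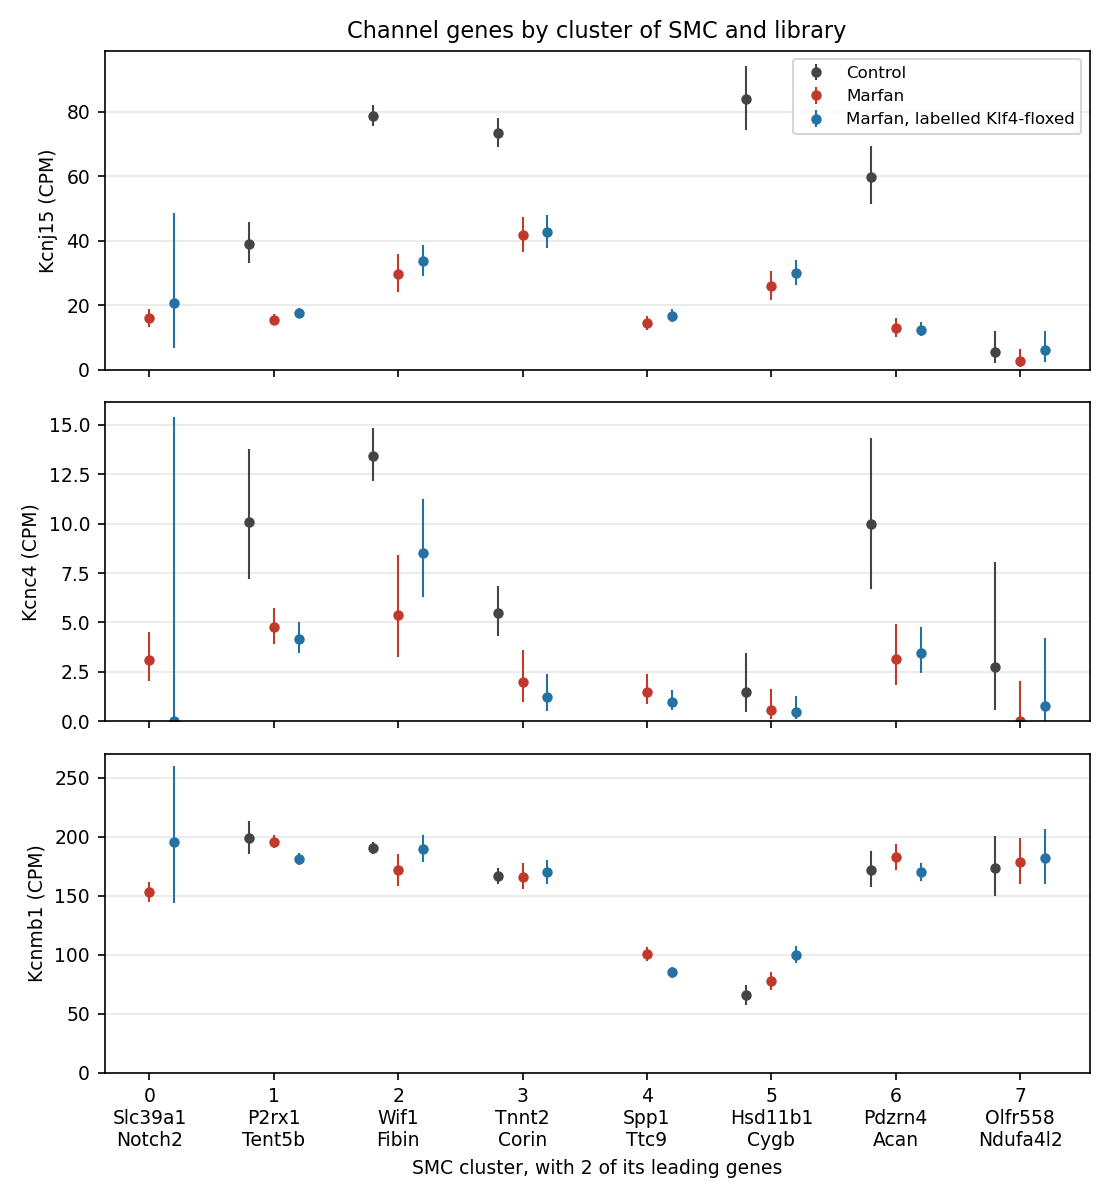
CPM of Kcnj15, Kcnc4 and Kcnmb1 by SMC cluster, with 2 leading genes under each cluster number, for each library with at least 50 cells; bars are 95% Poisson intervals. The control points of Kcnj15 lie above both Marfan libraries in clusters 1, 2, 3, 5 and 6, while those of Kcnmb1 lie close to them in clusters 1, 2, 3, 6 and 7.

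At equal depth the control was again highest for Kcnj15. With each cell thinned to 2000 UMIs, 12.4% [11.5, 13.3] of control SMC, 3.39% [2.93, 3.91] of Marfan SMC and 3.92% [3.43, 4.46] of those of the library labelled Klf4-floxed held a Kcnj15 UMI (exact binomial intervals). This left out 115, 4622 and 131 shallower cells, and unthinned shares were 41.3%, 7.03% and 14.98%. Macrophage or monocyte-like cells, assumed to lack the gene, came from the lineage-negative libraries, with thinned shares of 0.258%, 0.0968% and 0.362%. The SMC came from the other sort, so these shares give no background level for SMC. For Kcnmb1 the thinned SMC shares were 28.2%, 27.2% and 24.6%.

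Lineage-negative SMC-like cells, a cluster of 65, 129 and 103 cells, came from the other sort of the same 3 groups. They share their pooled animals with the SMC above and so are not an independent replicate. In these cells Kcnmb1 stood at 156, 132 and 126 CPM and Kcnab1 at 141, 88.5 and 92.3. Kcnj15 stood at 78.0 CPM [59.6, 100], 16.0 [10.7, 23.0] and 20.7 [13.7, 29.9], again with the control apart. Kcnma1 stood at 28.1 CPM [17.6, 42.6], 34.3 [26.3, 44.0] and 20.7 [13.7, 29.9], so that its order was not that of SMC. The intervals of these levels overlapped. Its log2 ratio was 0.29 [-0.44, 1.06] between Marfan and control. Between the library labelled Klf4-floxed and Marfan it was -0.73 [-1.43, -0.06], an interval that left out 0. Kcnk1 had 2, 7 and 5 UMIs, with a log2 ratio of 0.60 [-1.79, 3.90] between Marfan and control.

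Between SMC and fibroblast-like cells (3218, 3927 and 4228 cells), the beta subunits of the BK channel were counted in different cells. Each genotype gave a pair of values, and with 3 pairs the exact two-sided sign-flip test cannot go below p = 0.25, the value it gave for Kcnmb1, Kcnmb4, Kcnma1, Kcnc4, Kcnh2, Kcnj8, Kcnt2 and Kcne4. Of 45 members with UMIs in both classes of every genotype, 14 were higher in SMC in each genotype and 23 were lower in each. These counts set no fold or minimum level. Without the same split over all features, they do not set the members apart from other genes. Kcnmb1 in fibroblast-like cells stood at 0.514, 0.525 and 0.635 CPM, 339-, 299- and 236-fold below SMC. Kcnmb4 ran the other way, at 18.2, 13.7 and 17.5 CPM in fibroblast-like cells and 4, 8 and 8 UMIs in SMC (0.069, 0.121 and 0.103 CPM). In the class of valve interstitial or chondrocyte-like cells, whose leading genes include Chad, Kcnmb4 stood at 32.7, 20.1 and 26.8 CPM. Kcnmb1 had 3, 0 and 0 UMIs there, and the exact interval of the 0 in the Marfan library reaches 0.593 CPM. The pore subunit Kcnma1 was counted in all 3 classes and was 1.82-, 1.58- and 1.20-fold higher in SMC than in fibroblast-like cells. It stood at 21.7, 16.4 and 21.0 CPM in fibroblast-like cells and 82.0, 61.6 and 53.2 in the valve interstitial or chondrocyte-like cells. Within the fibroblast-like class Kcnmb4 was uneven: it stood at 72.2, 45.7 and 49.8 CPM in the cluster led by Npy and at or under 0.7 CPM in all libraries of the cluster led by Spon2 and Clec3b. The Kcnmb1 gene (chromosome 11, 33963013 to 33973641, + strand, GENCODE M21, mm10) overlaps Kcnip1 on the opposite strand, and Kcnip1 held 11, 10 and 9 UMIs in SMC. Kcnmb4 (chromosome 10, 116417861 to 116473878, - strand) and Kcnma1 (chromosome 14, 23289431 to 24014491, - strand) overlap antisense genes too, so that without known strand handling their counts and those of their antisense partners cannot be told apart.

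**Figure D4:**
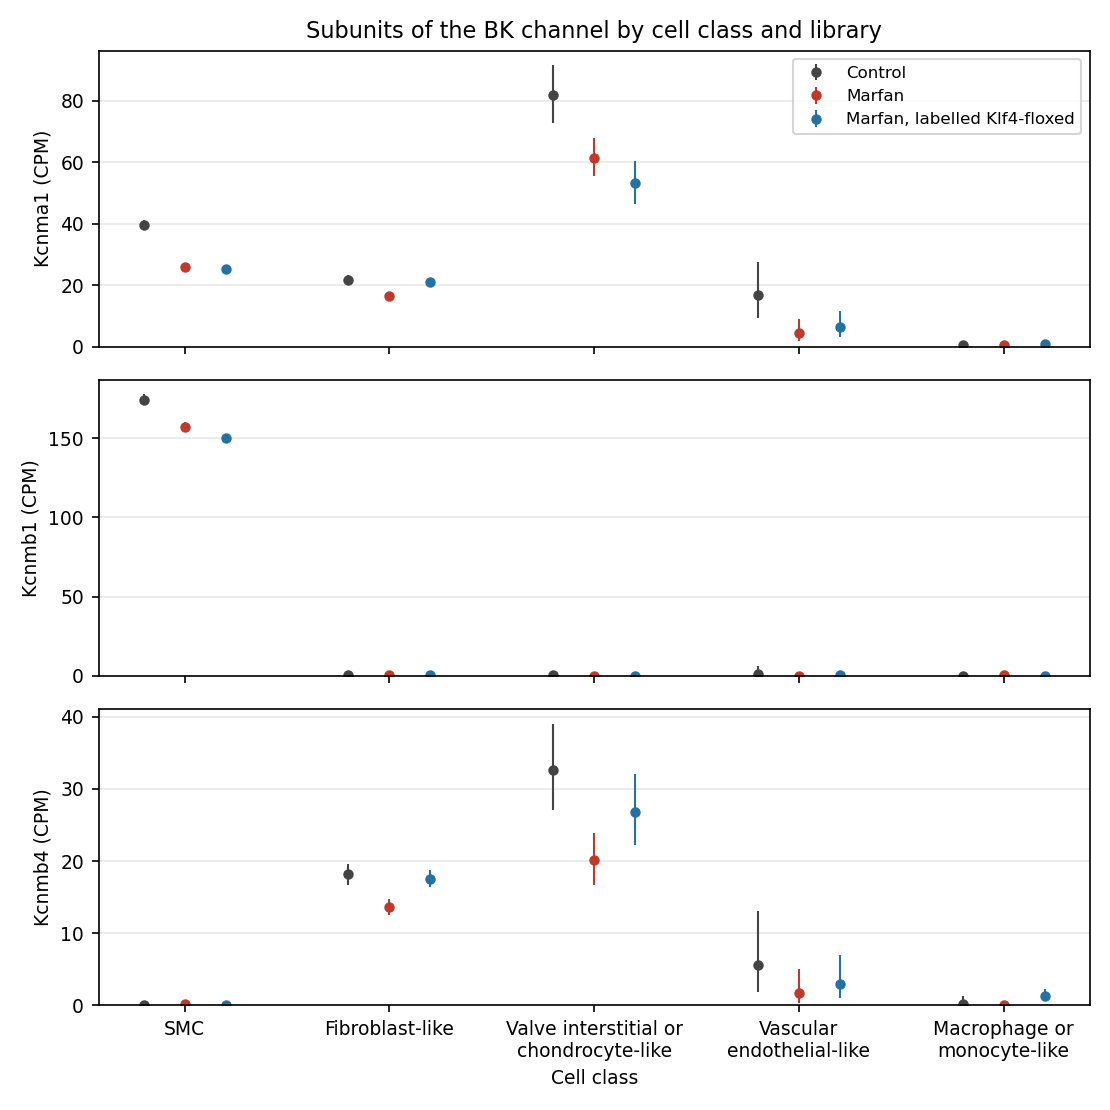
CPM of the BK pore subunit Kcnma1 and the beta subunits Kcnmb1 and Kcnmb4 in 5 cell classes, 1 point per library with its 95% Poisson interval. Kcnmb1 lies at 150 CPM or more in SMC and near 0 elsewhere, and Kcnmb4 is near 0 in SMC and highest in valve interstitial or chondrocyte-like cells.

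Other members also differed between SMC and fibroblast-like cells. Kcnc4 had 4, 2 and 3 UMIs in fibroblast-like cells, and Kcnh2 was 23.8-, 29.1- and 26.9-fold lower there. The ATP-sensitive channel ran the other way: Kcnj8 stood at 78.5, 74.8 and 78.6 CPM in fibroblast-like cells, 3.18-, 3.91- and 3.07-fold above SMC, and Abcc9 at 252, 180 and 212 CPM. Kcne4 was also counted there, at 32.6, 29.4 and 20.5 CPM, lowest in the library labelled Klf4-floxed. Kcnt2 was 7.07-, 7.997- and 7.23-fold above SMC, at 77.4, 63.6 and 59.97 CPM.

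Among fibroblast-like cells, 25 members reached a mean of 1 CPM. Between the Marfan and control libraries none was at least 1.5-fold higher (2.73% of features were) and 2 were lower (3.31% of features), Kcng4 (log2 ratio -1.41 [-2.12, -0.73]) and Kcne1l (-0.81 [-1.40, -0.24]), with levels under 2 CPM in each library. The median was -0.22, against -0.04 over all features. With the class gated by markers in place of clusters, 27 members were tested, of which 1 was higher (4.87% of features) and 7 lower (5.16%), with a median of -0.42. Between the library labelled Klf4-floxed and the Marfan library 2 were higher (1.91% of features), Kcna6 (0.84) and Kcnb2 (0.63), and 0 lower (2.2% of features). Kcnj15 stood at 36.1, 26.8 and 26.9 CPM in fibroblast-like cells, a ratio of -0.43 between Marfan and control where SMC gave -1.97; the difference between the 2 ratios was not tested. In valve interstitial or chondrocyte-like cells it stood at 225 CPM [210, 241], 98.6 [90.9, 107] and 120 [110, 130], with the control again highest. Other members counted in these cells were Kcnt2 at 56.9, 47.9 and 57.7 CPM, Kcne4 at 35.4, 18.5 and 18.2 and the mechanosensitive two-pore channel Kcnk2 at 22.3, 14.95 and 18.2. Kcne4 was about as low in the library labelled Klf4-floxed as in the Marfan library, with intervals that overlapped.

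In macrophage or monocyte-like cells the two-pore channel Kcnk13 stood at 39.4, 33.1 and 31.1 CPM, and the intermediate-conductance calcium-activated channel Kcnn4 at 16.3 [12.8, 20.4], 44.5 [40.7, 48.6] and 27.2 [23.7, 31.0]. Kcnn4 was thus lowest in the control and highest in the Marfan library. The class pooled a cluster of 158, 727 and 517 cells with a cluster of 237, 330 and 328 cells. Its makeup thus differed between libraries, and the part of this in the Kcnn4 levels was not tested. The two-pore channel Kcnk6 stood at 20.7, 17.3 and 17.4 CPM, the Kv beta subunit Kcnab2 at 18.3, 13.2 and 13.5, and the inward rectifiers Kcnj2 and Kcnj10 at 10.6, 6.93 and 6.54 and at 4.62, 8.88 and 8.02. Kcnj10 was the only one of these 4 with its lowest value in the control. In vascular endothelial-like cells Kcnn4, a mediator of endothelial hyperpolarization, stood at 76.1, 81.0 and 107 CPM. The Kv3 channel Kcnc2 stood there at 67.2 CPM [51.3, 86.5], 14.9 [9.75, 21.9] and 37.5 [28.8, 48.0], in 113, 192 and 204 cells. The small-conductance channel Kcnn3 stood at 11.2, 4.59 and 10.1 CPM, with overlapping intervals. In lymphatic endothelial-like cells the two-pore channel Kcnk5 stood at 48.4, 34.8 and 25.7 CPM with overlapping intervals, and Kcnt2 at 45.8, 16.1 and 19.6.

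Mesothelial-like cells held Kcnab1 at 40.4 CPM in the Marfan library and 63.2 in the library labelled Klf4-floxed, and Kcnt2 at 26.8 and 49.2; the control had 17 such cells. Neutrophil-like cells came almost all from the Marfan library (199 cells) and held the inward rectifier Kcnj2 at 112 CPM [85.2, 146], with Kcna7 next at 7 UMIs. Of the 52 members under 1 CPM in SMC, 16 lay between 0.1 and 1 CPM there. Over all named classes, 58 of the 75 members reached a mean of 1 CPM in at least 1 class and 17 in none. Of the 58, 7 were highest in SMC, 5 in lineage-negative SMC-like cells, 10 in vascular endothelial-like cells, 9 in valve interstitial or chondrocyte-like cells and 8 in fibroblast-like cells. Shares over all features were not set beside these counts, which therefore do not rank the classes. A class of few cells can be highest on few UMIs: 3 UMIs equal 3.36, 1.72 and 1.78 CPM in vascular endothelial-like cells.

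**Figure D5:**
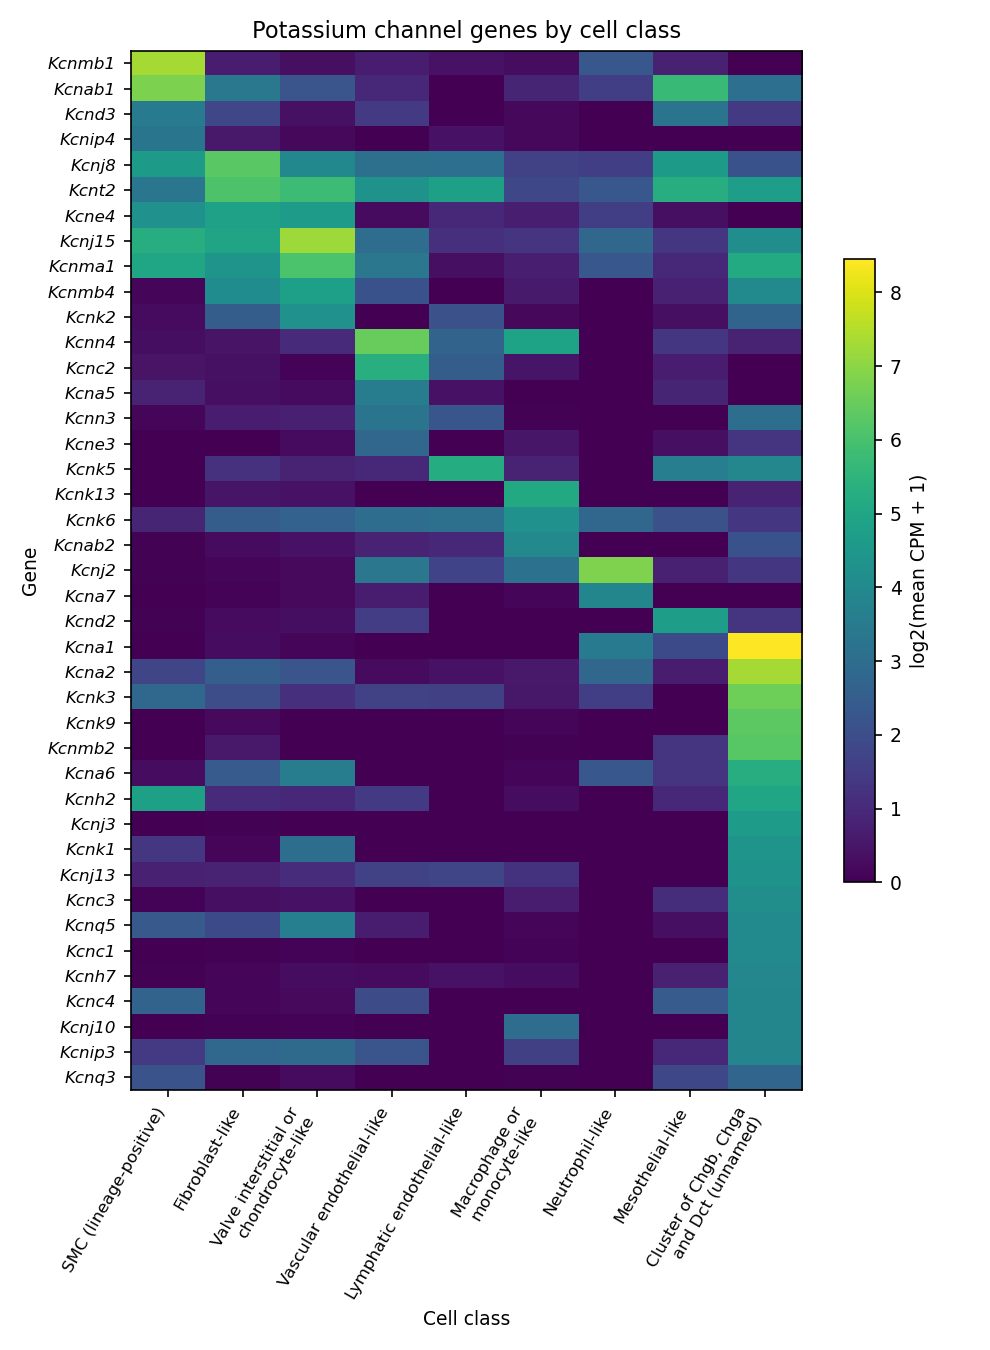
Mean over libraries of CPM, as log2(CPM + 1), for reported members that reached 5 CPM in at least 1 of the classes drawn. Members are ordered by the class of their highest level, so that blocks of high values run from Kcnmb1 and Kcnab1 in SMC to Kcna1 and Kcna2 in an unnamed lineage-negative cluster.

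Of 41 genes that work with these channels (listed partners such as calcium channels and gap junction genes), 29 reached 1 CPM in SMC, and between Marfan and control 0 were at least 1.5-fold higher (5.01% of features were) and 1 lower (3.75%), the calcium channel pore gene Cacna1d (24.9, 16.1 and 16.7 CPM). Their median log2 ratio was -0.16, against -0.07 for all features. Cacna1c, the pore of the main arterial calcium channel, stood at 15.8, 12.0 and 13.4 CPM.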

How the data were processed

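Messenger RNA of single cells was captured with the Chromium 3' version 3 chemistry, per the labels' protocols. The authors deposited 1 matrix of UMI counts per library, made with Cell Ranger 6.1.2 per the file headers, on build mm10 per the submitters' processing notes. The deposited values are raw counts per gene and cell. Strand handling in counting is not given in the sources used here.

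Kept cells had 1000 UMIs and 500 genes or more, with mitochondrial UMIs no higher than 10%. Doublets were scored with Scrublet. Where it marked under 0.5% of cells, the cells with the highest scores were removed at 0.8% per 1000 cells. Cells were clustered with scanpy 1.11.5 and leidenalg 0.10.2 (2000 variable genes without Kcn genes, 30 components, 15 neighbours, resolution 1). Clusters were named from 20 marker lists, with at least 3 markers detected. Conditions on naming were set after the data were examined. Naming left 4 lineage-negative clusters unnamed, and shares of cells are not compared.

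Counts were summed per class and library. CPM have exact Poisson intervals and ratios exact conditional binomial intervals, both at 95%. With 1 library per group no genotypes were tested; SMC and fibroblast-like cells were compared by an exact two-sided sign-flip test over the 3 genotypes. A member counted as higher or lower at 1.5-fold, among features of a mean of at least 1 CPM. The ratio and its interval were tested on simulated data. Values are given for members that reached 10 CPM in SMC of any library, that differed by 1.5-fold in SMC, or that were the 2 highest of a class; Kcnmb4, Kcnip1, Kcnip3, Kcnj12, Kcnk3, Kcnq3, further members of lineage-negative classes and those named in unnamed clusters were chosen after their values were seen. Values of 2 members that met this rule are not reported here, though they count in totals. Members and lists were chosen with earlier results of these data known. Alternatives covered cell filters, the Myh11 gate, doublets, weighting, thinning, scaling and the filter on low levels.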

Additional observations from a re-analysis of the deposited data

How the results depend on the processing

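With 1 library per group, no library could be left out. No paired analysis was possible because each genotype has 1 library of a sort; SMC and fibroblast-like cells pair by genotype, and their exact test stands beside their levels. Of the values of single genes under alternatives, 799 moved by no more than their counting error and 56 moved further. No called ratio changed sign. Between Marfan and control SMC, Kcnj15 ran from -2.13 to -1.87, Kcnc4 from -1.76 to -1.58 and Kcnt1 from 2.61 to 3.78, while Kcnma1 reached -0.54 and Kcnq5 -0.56, short of 1.5-fold.

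Counts of members past 1.5-fold depended most on the filter on low levels. At a mean of at least 5 CPM, Marfan against control gave 0 higher and 5 lower in SMC, the library labelled Klf4-floxed gave 1 higher and 0 lower against Marfan and 0 higher against control, and fibroblast-like cells gave 0 lower for Marfan against control and 0 higher in their other comparison. With no filter these counts were 19 and 18, 13 and 17, and 18 with 23 lower in SMC, and 14 and 20, then 13 and 15, in fibroblast-like cells, where genes of few UMIs enter, among 65, 69, 66, 74 and 74 members. The shares of all features higher and lower were then 15.5% and 11.1%, 9.94% and 10.5%, 14.5% and 10.6%, 12.6% and 11.3%, and 11% and 10.3%. The count higher in the library labelled Klf4-floxed against Marfan was 1 at a minimum of 4000 UMIs, at a mitochondrial limit of 20%, with at least 3 Myh11 UMIs and without SMC cluster 0 (chosen after seeing the data), and 4 when thinned. Against control it was 2 once totals excluded mitochondrial and ribosomal genes. Fibroblast-like cells gated by markers gave 1 higher, 7 lower and a median of -0.42 for Marfan against control, and 4 higher and 2 lower for the other comparison, against 4.87%, 5.16%, 2.88% and 3.55% of features; with each cell weighted alike, 1 was lower. The causes were not tested. Depth limits members under 1 CPM, where 3 UMIs equal 0.0517, 0.0454 and 0.0387 CPM of the SMC libraries.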

Other observations

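An unnamed lineage-negative cluster of 45, 45 and 67 cells was led by the secretory granule genes Chgb and Chga with Dct. Together the members made up 0.164%, 0.0914% and 0.116% of its UMIs. Levels in so few cells can rest on few UMIs: 3 UMIs equal 15.2 CPM in the control. Kcna1, a Kv1 subunit of axons, stood at 425 CPM [339, 526] in the control, 397 [321, 485] in the Marfan library and 231 [188, 281] in the library labelled Klf4-floxed, and Kcna2 at 177, 205 and 98.0 CPM. The acid-sensitive two-pore channels Kcnk3 and Kcnk9 stood at 152, 29.2 and 107 CPM and at 106, 0 and 131 CPM. The BK subunit Kcnmb2 stood at 162, 0 and 67.7 CPM. For the 0 values of the Marfan library, the 12.5 CPM of 3 UMIs is not the upper limit of an exact interval. The leading genes of this cluster mark more than 1 cell type, and its makeup by library was not tested.

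Another unnamed cluster, led by Il11, Cxcl5 and Il6, held 230 Marfan cells, 2 cells of the library labelled Klf4-floxed and none of the control. Kcnj15 stood there at 85.8 CPM [78.6, 93.6] and Kcne4 at 40.1 CPM. In fibroblast-like cells Kcnj15 was uneven as well: the cluster led by Npy held it at 129, 98.5 and 78.7 CPM, and the cluster led by Tnnt2 and Corin at 76.4, 17.8 and 19.4 CPM. Tnnt2 and Corin also led SMC cluster 3, and whether this fibroblast-like cluster holds SMC was not tested.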
